A study of Mus musculus with 12 samples.

Results

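The genes described here encode proteins of the spliceosome and the serine/arginine-rich (SR) splicing factors, and they were followed in mouse 2-cell embryos in which Eif1ad3 was knocked down and in RNA recovered with His-tagged Eif1ad3. They were chosen by symbol: genes starting with Snrp, Sf3a, Sf3b or Prpf, Srsf followed by a digit, and Lsm1 to Lsm8, without pseudogene symbols (1 was left out). The rule gave 52 genes, all listed in both deposited tables, out of 17866 genes in the knockdown table, 19390 in the immunoprecipitation table and 17012 in both. By role they comprised 8 Sm proteins, 5 proteins of the U1 particle, 11 of the U2 particle, 8 Lsm proteins, 9 proteins of the tri-snRNP or joining with it, Prpf19, and 10 SR proteins.

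The embryos of the knockdown experiment came from CF1 mice, per the design text. Control embryos, labelled as wild type, and Eif1ad3 knockdown embryos gave 2 libraries each, called replicates A and B. The sources name the reagent in different ways: in the design text, mRNA for the RNA-cutting enzyme RfxCas13d with a guide RNA against Eif1ad3 and its relatives, and in control embryos the enzyme's mRNA alone, both given at the 1-cell stage; in the sample protocol, morpholino oligos (control ones, or antisense to Eif1ad3) together with Cas13d protein, given to oocytes. For RIP-seq, in which the RNA held by a precipitated protein is sequenced, mRNA coding for Eif1ad3 with a His tag was made in vitro and put into zygotes at 200 ng/uL. Each replicate used 200 cells, whose lysate met either anti-His or IgG beads, so that the His and IgG groups (2 libraries each) both came from embryos labelled as overexpressing Eif1ad3, from injected mRNA rather than from the embryo's own gene. The labels do not say whether replicates came from separate collections, so p-values measure the spread between these libraries, which may be technical. Each library is bulk RNA, in which fewer cells and less RNA per cell cannot be told apart.

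The spliceosome removes introns from pre-mRNA. It is built from small nuclear ribonucleoproteins (snRNPs): a ring of Sm proteins sits on the U1, U2, U4 and U5 RNAs, and a ring of Lsm proteins on U6. U1 marks the start of an intron, U2 binds near its end through the SF3a and SF3b complexes, and the U4/U6.U5 tri-snRNP then joins, after which the Prp19 complex takes part in activation. SR proteins bind exons and help U1 and U2 to find their sites. At the 2-cell stage of the mouse, maternal RNA is being degraded while the embryo's genome starts to be transcribed, so the transcripts of these genes can come from both stores.

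Values are in CPM: the authors scaled a gene's reads to a common total in every library. Library totals ran from 18173916 to 27902514 reads for the knockdown experiment, where 3 reads, used as the floor of detection, were worth 0.108 to 0.165 CPM. In the immunoprecipitation table they were 4678563 to 8364126 reads, with a floor of 0.359 to 0.641 CPM. Smart-seq2 libraries are amplified by PCR without molecular identifiers, so floors cover counting error only. Eif1ad3 itself, the targeted gene, was at 839 (A) and 663 (B) CPM in controls against 277 (A) and 377 (B) CPM after knockdown. All 10 markers of the 2-cell embryo were measured, and the mean was lower after knockdown for 9 of the 10, with a median log2 fold change of -0.37. None of them passed the test described next.

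Knockdown and control embryos were compared first, to see whether splicing genes differed when Eif1ad3 was reduced. Of the 52 genes, 51 had at least 1 CPM in at least 2 of the 4 libraries and were tested; Prpf40b, a U1-associated protein, was at 0.88 and 1.00 CPM in controls and at 0.65 and 0.11 CPM in knockdown embryos and was not. With limma on log2(CPM + 1) and Benjamini-Hochberg adjustment over 13332 genes, 0 of 51 were higher and 0 lower at an adjusted p under 0.05, as were 0.0% of all genes in either direction. The smallest adjusted p of the 51 was 0.859. At an unadjusted p under 0.05 there were 4 genes (7.84%; 5.45% of all genes tested), namely Snrpb2, Snrpa1, Snrpa and Lsm1. With edgeR 2 of the 51 (758 of all 13332 genes) and with DESeq2 5 of the 51 (1029 of all genes) had an unadjusted p under 0.05. Neither tool called any of the 51 at an adjusted p under 0.05, and over all genes edgeR called 0 and DESeq2 15. The median log2 fold change was 0.12 over the 51 genes and 0.02 over all genes tested, and 31 of the 51 had a higher mean in knockdown embryos (6843 of all 13332 genes). Without control replicate A the median was -0.081 and 23 of 50 genes had a higher mean.

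**Figure D1:**
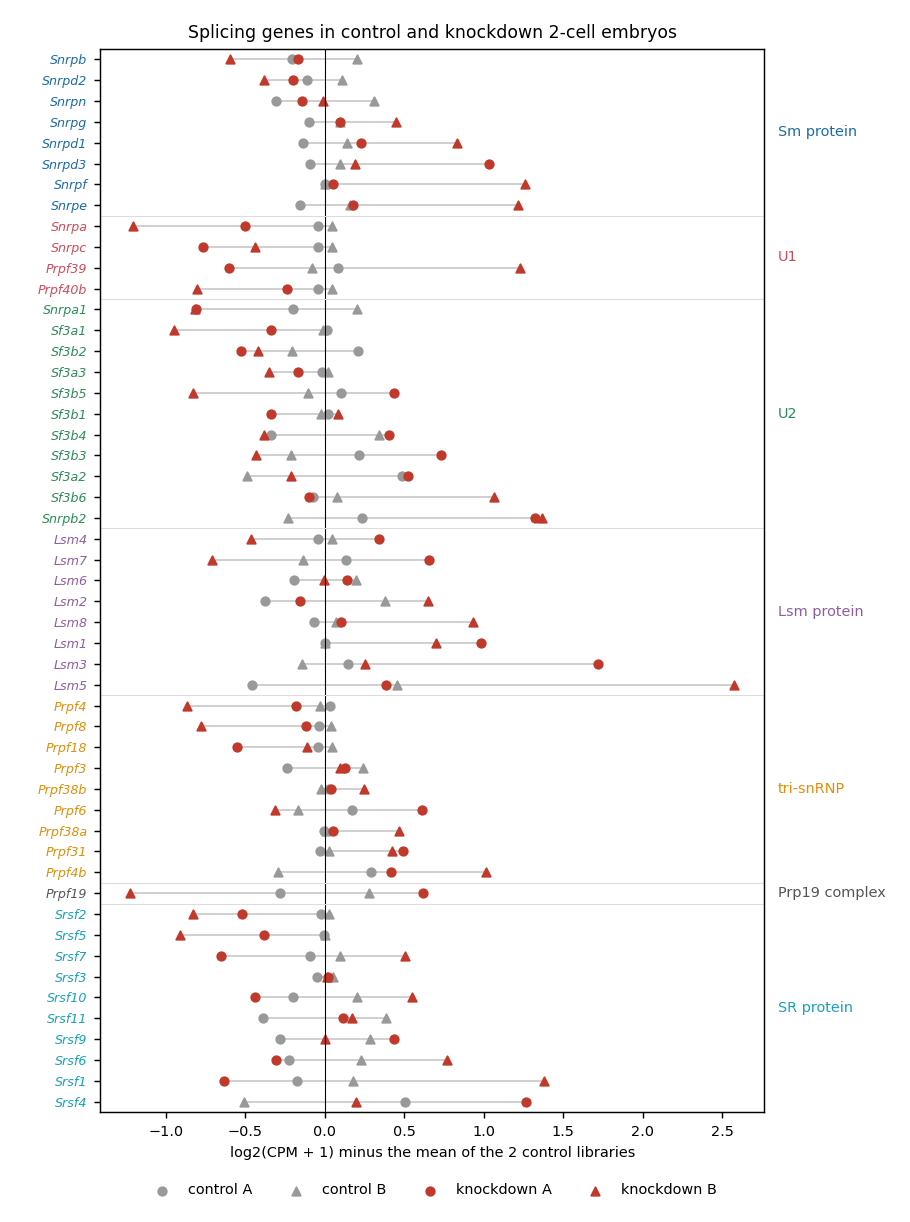
Level of the genes (1 of the 52 is not drawn) in the 4 libraries of the knockdown table, as log2(CPM + 1) minus the mean of the 2 control libraries (horizontal axis), grouped by role; grey symbols are controls, red symbols are knockdown, circles are replicate A and triangles replicate B. Prpf40b is drawn but was not tested. For Snrpb2 both red symbols lie right of both grey ones, for Snrpa1 both lie left, and for genes such as Srsf1 and Prpf39 they lie on either side.

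Among the U2 proteins, the partners that sit together on the U2 RNA had opposite directions. Snrpb2, whose product binds a stem-loop of the U2 RNA, was at 47.8 CPM (A) and 34.3 CPM (B) in controls and at 102.9 CPM (A) and 106.1 CPM (B) after knockdown; pairs of values keep this order throughout. The 4 values came from 854 to 2872 reads. Both knockdown libraries were above both controls and close to each other, and the mean was 255% of the control mean (log2 fold change 1.35, SE 0.37, unadjusted p = 0.00689 and adjusted p = 0.859 by limma, a model fitted across all genes). Snrpa1, the U2 protein that binds next to it, was at 181.5 and 240.0 CPM in controls and at 118.4 and 118.1 CPM in knockdown embryos. Here both knockdown libraries were below both controls, at 56.1% of the control mean (log2 fold change -0.81, SE 0.34, adjusted p = 0.859 by limma). Neither gene passed the adjusted threshold.

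Upstream windows were read for the genes with the largest difference in each direction that had a single listed start site and at most 30 bases of the window within an annotated gene (Snrpb2, Lsm3 and Snrpa1), and those of the U2 partners Snrpb2 and Snrpa1 are shown. The 150 bases upstream, from the RefSeq promoter table of the GRCm38.p6 build, read 5' to 3' on the gene's strand; capitals mark matches on either strand to CCGGAA (an ETS core), GGGCGG (an Sp1 core), CCAAT or TATAAA.
Snrpb2, chr2:143062919-143063068, plus strand: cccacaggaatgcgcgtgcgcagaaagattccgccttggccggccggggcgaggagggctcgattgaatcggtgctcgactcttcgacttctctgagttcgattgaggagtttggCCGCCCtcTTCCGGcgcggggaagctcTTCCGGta
Snrpa1, chr7:66060186-66060335, plus strand: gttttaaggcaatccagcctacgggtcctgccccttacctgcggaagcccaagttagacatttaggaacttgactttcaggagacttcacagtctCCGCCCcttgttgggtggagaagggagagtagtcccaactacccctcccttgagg
Both windows lie outside annotated genes. The Snrpb2 window held 2 matches to CCGGAA and 1 to GGGCGG and had 17 CG dinucleotides and 62.7% G and C. The Snrpa1 window held 1 match to GGGCGG and none to the other motifs, with 3 CG dinucleotides and 54.0% G and C. The table had entries for 44 of the 52 genes, with 57 start sites. CCGGAA on either strand was found in 40.4% of these 57 windows, against 9.23% of all 32851 windows in the table and 16.6% of the 12907 windows of genes tested in the knockdown comparison. For GGGCGG the shares were 52.6%, 28.6% and 47.5%, for CCAAT 26.3%, 24.5% and 27.9%, and for TATAAA 5.26%, 7.57% and 4.27%. A match is a stretch of letters and not a measured binding site.

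The SF3a and SF3b subunits, which hold U2 at the branch point, lay on both sides of the control level. Sf3a1 was at 110.9 and 109.2 CPM in controls and at 86.8 and 56.5 CPM in knockdown embryos (log2 fold change -0.64, SE 0.37, adjusted p = 0.859 by limma). Its groups did not overlap, nor did those of Sf3a3 and Sf3b2, which had lower means too. Sf3b1, the subunit that contacts the branch point, was at 502.8 and 488.3 CPM in controls and at 391.1 and 525.1 CPM in knockdown embryos, with 1 knockdown library below and 1 above both controls (log2 fold change -0.13, SE 0.32; 0.08 without knockdown replicate A). In all, 4 of the 11 U2 genes lay lower without overlap, 1 lay higher, and 5 had their knockdown libraries on opposite sides of the controls; over all genes tested these arrangements held for 18.4%, 18.1% and 27.3%. The median log2 fold change of the group was -0.13.

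Among the U1 proteins, which recognise the start of the intron, Snrpa and Snrpc had lower means after knockdown, and neither passed the test. The other core protein, Snrnp70, outside the rule, was at 33.4 and 42.7 CPM in controls against 53.3 and 29.4 CPM after knockdown. Snrpa was at 190.1 and 201.7 CPM in controls and at 138.2 and 84.4 CPM in knockdown embryos (log2 fold change -0.85, SE 0.37, adjusted p = 0.859 by limma). Snrpc was at 391.7 and 415.1 CPM in controls and at 236.6 and 297.3 CPM in knockdown embryos (log2 fold change -0.60, SE 0.31, adjusted p = 0.859 by limma). For both genes, 2 of the 4 tested, the knockdown libraries lay lower without overlap, as held for 18.4% of all genes tested. The U1-associated Prpf39 had 1 knockdown library on each side of the controls, and the median of the 4 U1 genes tested was -0.24.

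The Lsm and Sm genes, which encode the rings on the spliceosomal RNAs, had medians of 0.38 (8 Lsm genes) and 0.40 (8 Sm genes) on the log2 scale. Lsm1, which belongs to a cytoplasmic ring that acts in mRNA decay and not to the U6 ring, was at 87.1 and 87.2 CPM in controls and at 173.6 and 142.3 CPM in knockdown embryos (log2 fold change 0.84, SE 0.34, adjusted p = 0.859 by limma). Lsm8, its counterpart in the nuclear U6 ring, was at 55.4 and 61.2 CPM in controls and at 62.5 and 112.1 CPM in knockdown embryos. Lsm3, which is part of both rings, was at 15.3 and 12.3 CPM in controls and at 47.6 and 16.6 CPM in knockdown embryos (log2 fold change 0.99, SE 0.58). These 3 of the 8 Lsm genes were higher without overlap (18.1% of all genes tested), 2 had knockdown libraries on opposite sides of the controls and 3 overlapped. For Lsm3 the distance came from replicate A and for Lsm8 from replicate B. Lsm5 had few reads, 8 and 37 in controls and 38 and 178 in knockdown embryos, and its groups overlapped.

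Of the Sm genes, Snrpd1, Snrpd3, Snrpe and Snrpf lay higher and Snrpd2 lower without overlap, 4 and 1 of 8 (18.1% and 18.4% of all genes tested). Snrpe was at 257.5 and 321.5 CPM in controls and at 324.9 and 670.5 CPM in knockdown embryos, where replicate A was level with control replicate B (log2 fold change 0.70, SE 0.40, adjusted p = 0.859 by limma). Snrpg was at 321.9 and 368.9 CPM in controls and at 367.9 and 469.8 CPM in knockdown embryos, and its groups overlapped. Snrpb and Snrpn encode near-identical proteins, and how reads that fit both were counted is not given in the sources used here, so their separate values are uncertain.

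The genes of the tri-snRNP group were split, with 4 of 9 higher and 3 lower without overlap (18.1% and 18.4% of all genes tested) and a median of 0.14. Prpf4b, a kinase that phosphorylates tri-snRNP proteins, was at 52.3 and 34.5 CPM in controls and at 56.9 and 86.8 CPM in knockdown embryos (log2 fold change 0.71, SE 0.42, adjusted p = 0.859 by limma). Prpf38a was at 603.2 and 609.6 CPM in controls and at 628.1 and 839.2 CPM in knockdown embryos, and Prpf31 and Prpf38b were the other two that lay higher. The lower ones were Prpf4, Prpf18 and Prpf8, the scaffold of the catalytic centre. Prpf19, a ubiquitin ligase, was scarce in this table, at 1.56 and 2.77 CPM in controls and at 3.76 and 0.33 CPM in knockdown embryos (6 to 105 reads).

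Among the 10 SR genes, Srsf2 and Srsf5 lay lower without overlap and none lay higher (18.4% and 18.1% of all genes tested). Srsf2 was at 108.2 and 112.3 CPM in controls and at 76.4 and 61.6 CPM in knockdown embryos (log2 fold change -0.68, SE 0.35, adjusted p = 0.859 by limma). Srsf5 was at 477.6 and 479.2 CPM in controls and at 367.2 and 254.3 CPM in knockdown embryos (log2 fold change -0.64, SE 0.33, adjusted p = 0.859 by limma). For both, replicate B was the lower of the knockdown libraries. In the RefSeq gene table for GRCm38.p6, 16 of the 52 genes overlap another gene, Srsf2 with Mfsd11 and Prpf38a with Orc1 among them. So do Sf3a3, Sf3b3, Prpf31, Snrpn and Srsf4, which are taken up in the His comparison below. Whether the counting used strand is not given in the sources used here, so reads of such neighbours cannot be told apart.

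Counted over all roles, 12 of 51 genes were higher without overlap (23.5%; 18.1% of all genes tested) and 12 were lower (23.5%; 18.4% of all genes tested). Another 15 genes had 1 knockdown library above and 1 below both controls (29.4%; 27.3% of all genes tested). The median absolute difference between replicates was 0.66 log2 units in knockdown embryos and 0.22 in controls over the 51 genes (0.69 and 0.34 over all genes). Replicates were over 1 log2 unit apart for 14 of the 51 genes in knockdown embryos (27.5%; 33.0% of all genes). In controls this held for 1 gene (1.96%; 11.5% of all genes).

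**Figure D2:**
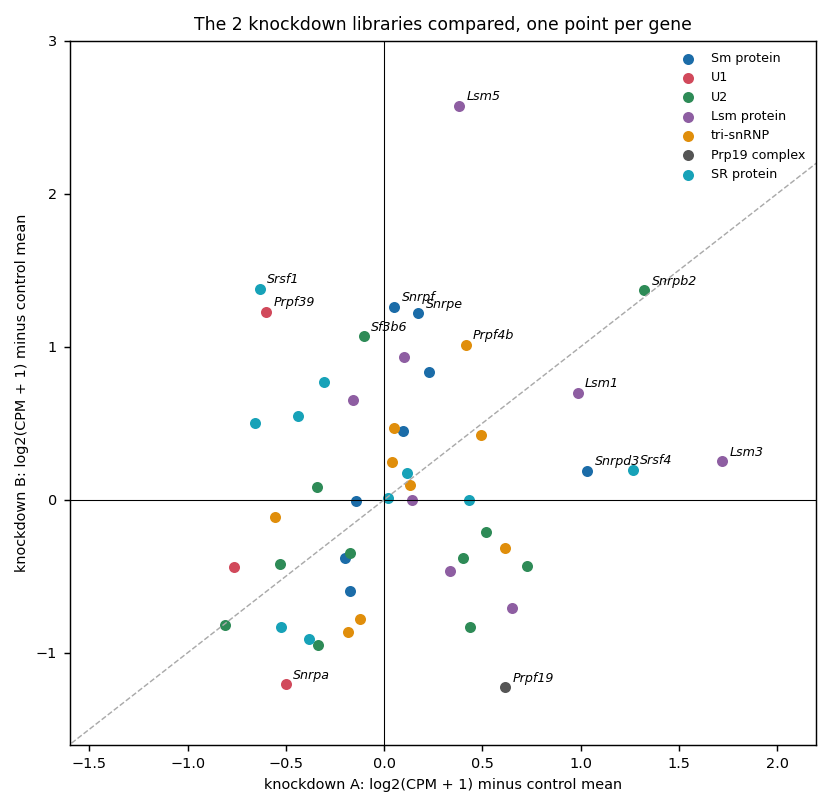
The tested genes (1 of the 51 is not drawn), with the level in knockdown replicate A on the horizontal axis and in replicate B on the vertical axis, both as log2(CPM + 1) minus the mean of the 2 controls; colours give the role and the dashed line marks equal values. Snrpb2 lies on the line, Lsm1 near it, and Srsf1, Prpf39 and Sf3b6 lie at the upper left, above the control mean in replicate B and below it in replicate A.

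In 8 of those 15 genes replicate B was above and replicate A below both controls (15.7%; 8.21% of all genes), and 4 of the 8 were SR genes: Srsf1, Srsf6, Srsf7 and Srsf10. Srsf1 was at 171.9 and 219.6 CPM in controls and at 125.0 and 506.6 CPM after knockdown. Srsf7 was at 510.0 and 582.2 CPM in controls and at 345.4 and 772.3 CPM in knockdown embryos; its log2 fold change of -0.08 took the other sign with quantile normalization (0.0038), edgeR (0.11) and DESeq2 (0.13). The others included Prpf39 (186.9 and 166.4 CPM in controls, 116.0 and 414.9 CPM in the knockdown libraries), Sf3b1 and Sf3b6. The opposite arrangement, A above and B below, was found for 7 genes (13.7%; 19.1% of all genes): Lsm4, Lsm7, Prpf6, Prpf19, Sf3b3, Sf3b4 and Sf3b5.

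Oocyte markers separated the same 2 libraries. All 10 on the list were measured; their levels added up to 15596 CPM in knockdown replicate A but 6836 CPM in replicate B, where controls had 7044 and 6881 CPM. The list's median deviation from the control mean was 1.25 log2 units in replicate A and -1.20 in replicate B, while that of the 51 splicing genes was 0.05 and 0.08. Of the cumulus and granulosa markers 5 of 10 were listed, at a summed 7.68 to 15.1 CPM over the 4 libraries with no order by group, and of the sperm markers 2 of 6, at 1.65 to 3.05 CPM. The part of the oocyte markers' difference in the splicing genes' values was not tested.

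Since the test had 2 libraries a group, each was left out in turn, with the spread then taken from the other group and shared across genes. Without knockdown replicate A, limma called 14 of 50 genes at an adjusted p under 0.05 (28%; 15.1% of all genes tested): Lsm5, Lsm8, Prpf39, Sf3b6, Snrpb2, Snrpd1, Snrpe and Srsf1 higher, and Sf3a1, Sf3b5, Snrpa, Snrpa1, Srsf2 and Srsf5 lower. Without knockdown replicate B it called 4 of 51 (7.84%; 3.23% of all genes tested): Lsm1, Lsm3 and Snrpb2 higher and Snrpc lower. Snrpb2 was the 1 gene called both times, and without either control library 0 were called. These calls set 1 knockdown library against the 2 close controls and assume that it varies as they do.

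A list of 100 further splicing genes (helicases, kinases, hnRNP, exon junction and assembly factors) was counted in the same way. Of the 97 tested, 0 passed; 10 were higher without overlap (10.3%; 18.1% of all genes tested) and 27 lower (27.8%; 18.4% of all genes tested). The median log2 fold change was -0.12. An unadjusted p under 0.05 was found for 6 of them (6.19%; 5.45% of all genes tested). The 2 with higher means were Magohb, of the exon junction complex, at 6.88 and 9.04 CPM in controls against 15.7 and 30.5 CPM after knockdown, and Snrnp27, of the tri-snRNP, at 46.3 and 42.4 CPM in controls against 121.2 and 86.2 CPM after knockdown. The 4 with lower means included the helicases Ddx39a, at 1083 and 1009 CPM in controls against 619.8 and 329.6 CPM after knockdown, and Dhx8, at 167.7 and 179.2 CPM in controls against 89.9 and 66.3 CPM after knockdown. All 6 had an adjusted p of 0.859 by limma.

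His and IgG libraries were compared next, to see which splicing transcripts were recovered with His-tagged Eif1ad3 beyond the bead background. Of the 52 genes, 50 were tested (Lsm5 and Prpf40b were below the filter), and 13 were higher in His at an adjusted p under 0.05 by limma (26%), against 35.7% of the 11232 genes tested. No gene in the table passed with quantile normalization (smallest adjusted p of the 50 genes 0.140) or with edgeR (0.0547), and none of the splicing genes without His replicate A or B. None of the 50 was lower, against 0.917% of all genes. The filter could be met by the 2 His libraries alone. Among the 13, Prpf3, Prpf8, Sf3a3, Sf3b3, Sf3b5, Sf3b6, Snrpa1, Snrpd2, Srsf4 and Srsf11 were under 1 CPM in both IgG libraries. They entered through His, so their direction was set by the filter. The groups did not overlap for 23 genes with His higher (46.0%; 54.1% of all genes) and for 5 with His lower (10%; 9.06% of all genes). The median log2 fold change was 2.05 over the 50 genes and 2.01 over all genes, so the splicing genes' shares and median were near or below those of the whole table. U2 genes made up 6 of the 13 calls (6 of 11 tested), tri-snRNP genes 3 (of 9), Sm genes 2 (of 8) and SR genes 2 (of 10). No Lsm gene (of 7), no U1 gene (of 4) and not Prpf19 passed; differences between roles were not tested.

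**Figure D3:**
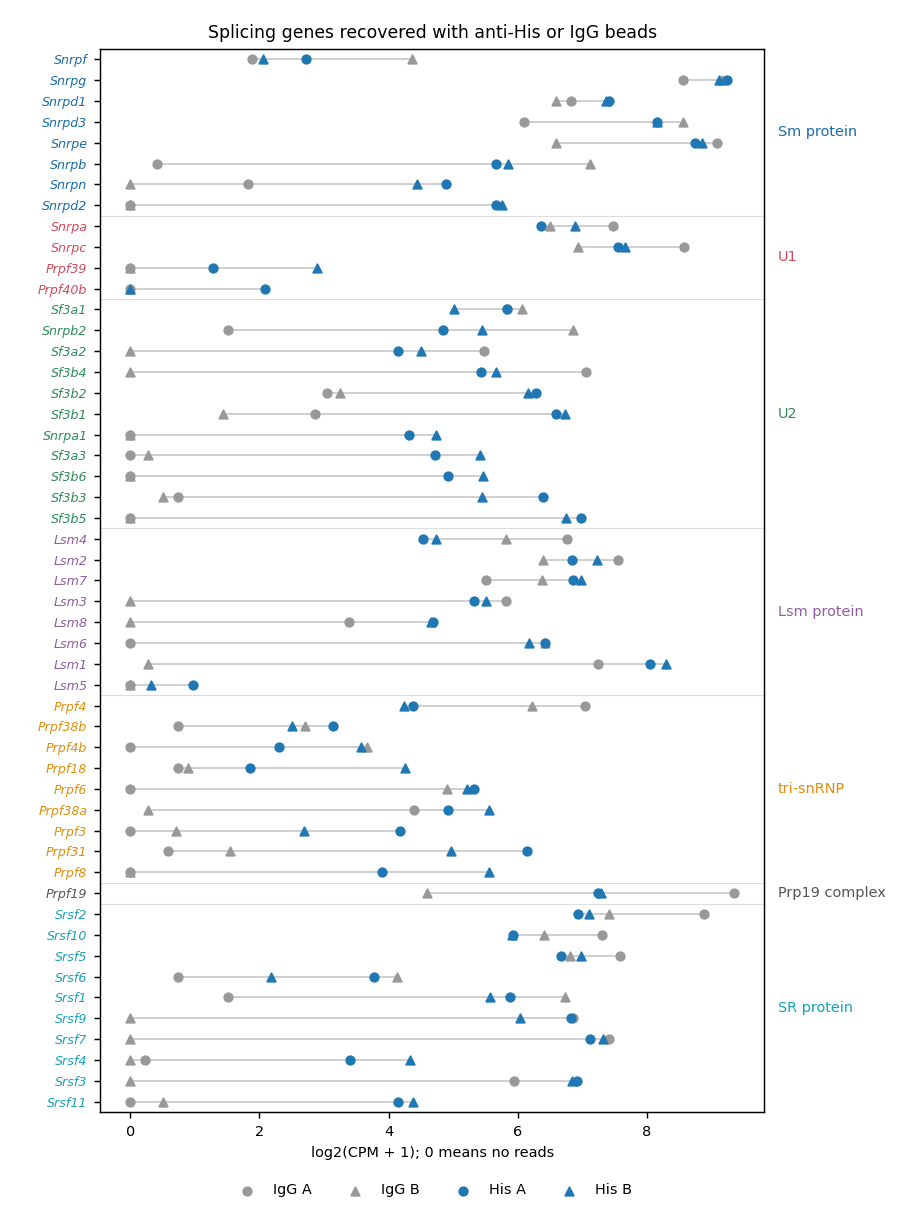
Level of the genes (1 of the 52 is not drawn) in the immunoprecipitation libraries, as log2(CPM + 1) on the horizontal axis, grouped by role; grey symbols are IgG, blue symbols are His, circles are replicate A and triangles replicate B, and 0 means no reads. The blue symbols of a gene mostly lie together, while the grey ones are often far apart, as for Snrpb, Lsm1 and Srsf7.

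The IgG libraries were sparse: 64.8% and 63.0% of the listed genes had 0 reads there, against 26.5% and 27.4% in His. Among the 45 splicing genes that averaged at least 10 CPM in His, 5 were without any read in either IgG library (11.1%; 19.8% of all such genes) and 14 had 0 reads in 1 of them (31.1%; 29.6% of all such genes). For 8 genes (17.8%; 16.7% of all such genes), 1 IgG library had 0 reads and the other at least 10 CPM: Lsm3, Lsm6, Prpf6, Sf3a2, Sf3b4, Srsf3, Srsf7 and Srsf9. The median absolute difference between replicates was 0.24 log2 units in His and 1.16 in IgG (0.41 and 1.34 over all such genes). Oocyte markers summed to 14335 and 14434 CPM in His and 4587 and 4977 CPM in IgG, cumulus and granulosa markers to 6.70 and 20.3 CPM in His and 1.01 and 0 CPM in IgG, and sperm markers to 1.08 and 7.20 CPM in His and 47.4 and 54.3 CPM in IgG; their part in the result was not tested.

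Of the U2 genes that passed, 3 had no reads in IgG. Sf3b5, a small subunit of SF3b, was at 125.4 (A) and 106.1 (B) CPM in His, with 0 reads in both IgG libraries, so its mean of 115.8 ± 13.7 CPM (SD, n = 2) was at least 409-fold higher than the floor of 3 reads over both IgG libraries together, 0.283 CPM (log2 fold change 6.86, SE 0.61, adjusted p = 0.00997 by limma). Sf3b6, the branch-point protein p14, was at 29.4 and 43.2 CPM in His and at 0 in IgG, at least 128-fold higher (adjusted p = 0.00997 by limma). Snrpa1 was at 19.0 and 25.6 CPM in His and at 0 in IgG, at least 78.9-fold higher (adjusted p = 0.00997 by limma). These minimums cover counting error only. Other genes, such as Srsf7 at 168.8 and 0 CPM, had many reads in 1 IgG library and 0 in the other. The log2 fold change of Sf3b5 followed the pseudocount, at 10.17 with 0.1 and 4.59 with 5.

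The other 3 U2 genes that passed had a few reads in IgG. Sf3b3 was at 83.2 and 42.8 CPM in His and at 0.68 and 0.43 CPM in IgG (log2 fold change 5.30, SE 0.68, adjusted p = 0.0132 by limma). Sf3a3 was at 25.5 and 41.6 CPM in His and had 1 read in the 2 IgG libraries together (log2 fold change 4.93, SE 0.51, adjusted p = 0.0100 by limma). Its ratio of His to IgG reads per total was 353 with an exact 95% interval of 63.1 to 13968, which covers counting error only. Sf3b1 was at 95.9 and 105.1 CPM in His and at 6.24 and 1.71 CPM in IgG (log2 fold change 4.52, SE 0.96, adjusted p = 0.0398 by limma). In each of them both His libraries were above both IgG libraries. The Sf3b1 call was lost with the replicate block (adjusted p = 0.143), a pseudocount of 0.1 (adjusted p = 0.0672) and no filter on low values (adjusted p = 0.0561), all by limma.

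Other members of the same complexes did not pass. Snrpb2, the partner of Snrpa1, was at 27.7 and 42.8 CPM in His and at 1.86 and 115.4 CPM in IgG, with His between the IgG libraries. Sf3a1 was at 56.2 and 31.5 CPM in His and at 56.2 and 65.8 CPM in IgG (log2 fold change -0.52, SE 0.86, adjusted p = 0.738 by limma), replicate A being level in both groups. Sf3a1 and Sf3a3 encode subunits of 1 complex, and their RNAs had fold changes of opposite sign.

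Outside U2, Snrpd2, an Sm ring protein, was at 49.7 and 53.0 CPM in His with 0 reads in both IgG libraries, at least 182-fold higher (log2 fold change 5.71, SE 0.48, adjusted p = 0.00997 by limma). Prpf8 was at 14.0 and 45.8 CPM in His and at 0 in IgG, at least 106-fold higher (adjusted p = 0.0193 by limma). The Prpf8 call was lost with a pseudocount of 5. The minimums of Snrpd2 and Prpf8 cover counting error only. With pseudocounts of 0.1 and 5 the log2 fold change of Snrpd2 was 9.01 and 3.49. The remaining genes higher in His were Prpf3, Prpf31, Snrpn, Srsf4 and Srsf11, with log2 fold changes from 3.07 (Prpf3) to 4.49 (Prpf31). With the replicate block and with a pseudocount of 0.1, Prpf3, Prpf31 and Snrpn did not pass. Without a filter and with a mean of at least 5 CPM, Prpf3 and Snrpn did not pass either, nor Prpf3 with a pseudocount of 5 or Snrpn with median rescaling. Of the 13 genes, 8 (Sf3a3, Sf3b3, Sf3b5, Sf3b6, Snrpa1, Snrpd2, Srsf4 and Srsf11) passed in all limma fits of the 4 libraries except that with quantile normalization. All 8 were under 1 CPM in both IgG libraries, where log2(CPM + 1) leaves little spread. The fits share these values, so passing again is no independent support. Srsf4 had 1 and Srsf11 had 2 reads in IgG, and their ratios of His to IgG reads per total had 95% counting intervals of 26.7 to 5968 and 26.4 to 799.6 (exact). Prpf39 also had 0 reads in both IgG libraries, but at 1.43 and 6.44 CPM in His it did not pass (adjusted p = 0.0938 by limma), although it was called higher with a pseudocount of 0.1 and with DESeq2.

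**Figure D4:**
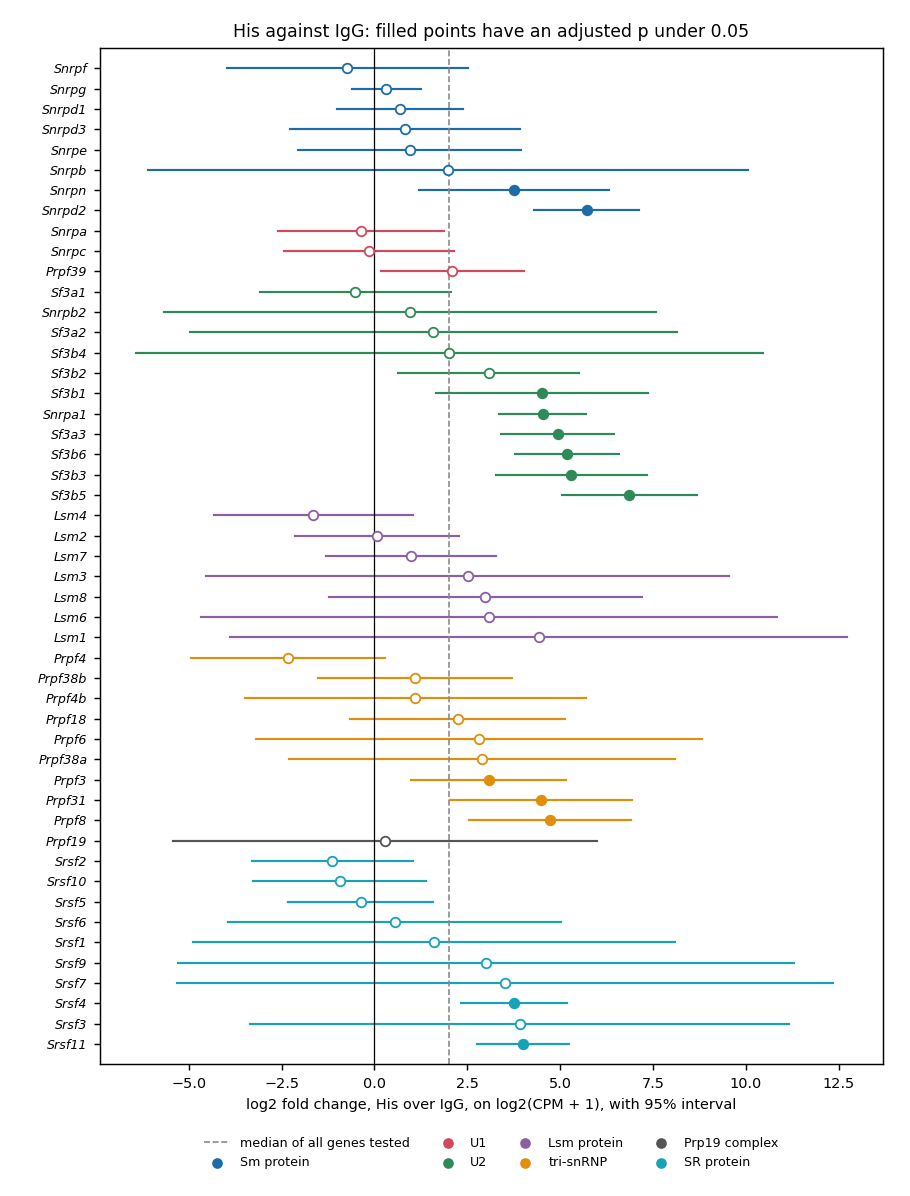
Log2 fold change of His over IgG on log2(CPM + 1) for the tested genes (1 of the 50 is not drawn), with limma's 95% interval as horizontal bars, coloured by role; filled points have an adjusted p under 0.05, the solid line marks 0 and the dashed line the median of all genes tested, 2.01. The 13 filled points all lie right of the dashed line, and many open points have intervals that span 0.

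The 5 genes that lay lower in His without overlap were Prpf4, Lsm4, Srsf2, Srsf10 and Sf3a1. None of them passed in the limma fits of all 4 libraries. Prpf4, a U4/U6 protein, was at 19.7 and 17.8 CPM in His and at 131.5 and 73.7 CPM in IgG (log2 fold change -2.33, SE 0.88, adjusted p = 0.142 by limma). Lsm4, a subunit of both Lsm rings, was at 22.2 and 25.8 CPM in His and at 108.0 and 55.4 CPM in IgG (log2 fold change -1.65, SE 0.90, adjusted p = 0.280 by limma). DESeq2 on the recovered reads called these 2 genes lower in His.

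Srsf2 was at 121.5 and 136.2 CPM in His and at 474.6 and 169.7 CPM in IgG, and Srsf10 at 60.0 and 59.2 CPM in His and at 157.5 and 84.0 CPM in IgG. Both SR genes were thus at a higher CPM on the IgG beads than in His.

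Several other genes had many reads in His and IgG replicates that lay far apart, and they were not called. Lsm1 was at 265.3 and 314.6 CPM in His and at 150.0 and 0.21 CPM in IgG. Prpf19 was at 150.6 and 154.8 CPM in His and at 653.5 and 23.1 CPM in IgG, and its log2 fold change of 0.29 (SE 1.91) was -1.38 with edgeR and -1.68 with DESeq2. Srsf7 was at 138.1 and 159.0 CPM in His and at 168.8 and 0 CPM in IgG.

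Prpf38a was at 29.3 and 46.2 CPM in His and at 20.1 and 0.21 CPM in IgG. Snrpc was at 186.5 and 201.2 CPM in His and at 380.9 and 121.0 CPM in IgG; its log2 fold change of -0.15 (SE 0.77) took the other sign with quantile normalization (0.39) and median rescaling (0.0049). Snrpg was at 606.4 and 557.2 CPM in His and at 377.0 and 575.0 CPM in IgG, with a log2 fold change of 0.32 (SE 0.31) that was -0.0027 with DESeq2. For Snrpg and Snrpc all 4 libraries held more than 100 CPM.

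These counts depended on the scaling, the tool and the libraries used. With quantile normalization the median log2 fold change of all genes went from 2.01 to -0.08 and that of the 50 splicing genes to 0.58; 33 of the 50 then had a higher mean in His, against 41 with the authors' scaling, and 10 had an unadjusted p under 0.05 (2339 of all 11232 genes). With edgeR on the recovered reads 13 of the 50 had an unadjusted p under 0.05 (4592 of all 11232 genes), and DESeq2 called 15 higher and 2 lower (34% of the 50; 49.1% of all genes). The medians of the splicing genes were then 0.74 (edgeR) and 0.49 (DESeq2), below the 1.56 and 1.30 of all genes. Leaving out either His library left 38 genes tested and 0 called; genes with no reads in IgG, such as Sf3b5, then had 1 library at 1 CPM or more and were not tested. Without IgG replicate A or B there were 31 calls (27 higher and 4 lower) and 34 calls (25 higher and 9 lower) of 50, when 69.1% and 70.0% of all genes passed.

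Of the 100 further splicing genes, 96 were tested and 18 were higher in His (18.8%; 35.7% of all genes tested), with a median log2 fold change of 1.09 against 2.01 over all genes. Clk3, a kinase of SR proteins, was at 128.4 and 110.1 CPM in His and at 0.51 and 0 CPM in IgG, and Plrg1, of the Prp19 complex, at 126.0 and 96.4 CPM in His and at 0 and 0.64 CPM in IgG. Ddx39a was the single gene of the list that was lower, at 999.1 and 979.1 CPM in His and at 1948 and 1651 CPM in IgG (log2 fold change -0.86, adjusted p = 0.0145 by limma).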

How the data were processed

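RNA was measured in 12 labelled samples, of which 8 were used. The names of 4 value columns could not be tied to the input or total RNA samples, so 4 of 8 planned results were not run. The authors deposited CPM; the submitters' processing notes name Trim Galore 0.6.7, FastQC, HISAT2 2.2.1, featureCounts 2.0.1, edgeR and GRCm39, with no role or order. The deposited CPM were whole multiples of 1 read for 100% of values (within 0.1 read), so the reads per gene and library totals of 4678563 to 27902514 were recovered. The tables were normalized separately, and tests were made within a table.

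A gene entered a comparison when 2 or more of its libraries reached 1 CPM. The test was limma 3.58.1 (R 4.3.3) applied to log2(CPM + 1) (eBayes with trend, two-sided, Benjamini-Hochberg over all genes tested, threshold 0.05). Fold changes on this scale understate the change of low genes; SE is limma's moderated error. Tests were checked on simulated data. Named with values are, per comparison, the 5 genes with the largest change each way among those at a mean of at least 10 CPM whose groups did not overlap, the gene of each role with the highest mean CPM in controls, and genes at 0 in a group against at least 100 CPM; all other genes given with values were chosen after their values were seen. Members, roles and lists were chosen with earlier results of these data known. Alternatives were other pseudocounts, filters and scalings, a replicate block, leaving out each library, and count tests of the recovered reads with DESeq2 1.42.0 and edgeR 4.0.16. Upstream sequences came from RefSeq (GRCm38.p6); shown windows overlapped no annotated gene. Values of 1 gene are not reported here; it stays in the counts and medians.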

Additional observations from a re-analysis of the deposited data

How the results depend on the processing

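In the knockdown comparison no splicing gene passed under any alternative except leaving out a knockdown library (0 to 14 called when a library was left out). The median log2 fold change was 0.19 with edgeR and 0.18 with DESeq2, and -0.081 to 0.22 when a library was left out, the negative value without control replicate A. The sign turned under some alternative for 23 of 51 genes, 23 when a library was left out and 4 otherwise; among the genes named by rule these were Srsf7 (0.0038 with quantile normalization, 0.11 with edgeR, 0.13 with DESeq2, -0.66 to 0.50 when a library was left out), Prpf19 (-1.22 to 0.62) and Sf3b1 (-0.34 to 0.084).

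In the His comparison 0 genes passed with quantile normalization and with edgeR, as over all genes. The other alternatives that kept all libraries gave 9 to 17 (18% to 34%), against 20.8% to 49.1% of all genes. The median log2 fold change was 3.20 with a pseudocount of 0.1, 1.06 with 5, 0.74 with edgeR, 0.49 with DESeq2, 0.58 with quantile normalization and 1.13 to 2.18 when a library was left out. The sign turned under some alternative for 26 of 50 genes, 19 when a library was left out and 19 otherwise; among the genes named by rule these were Prpf19 (-1.38 with edgeR, -1.68 with DESeq2, -2.09 to 2.67 when a library was left out), Snrpc (0.39 with quantile normalization, 0.0049 with median rescaling, the replicate block added or not, -0.97 to 0.67), Snrpg (-0.0027 with DESeq2) and Srsf7 (-0.19 to 7.22). A lone library was assumed to vary like the other group, and the causes of these changes were not tested. With the replicate block 0 of 51 and 9 of 50 genes passed (2 and 3894 of all genes), the calls lost being Prpf3, Prpf31, Sf3b1 and Snrpn; same-letter libraries' deviations correlated at 0.15 and -0.01, and the labels do not tie the letters, so they were not taken as pairs. In the immunoprecipitation libraries 3 reads were worth up to 0.641 CPM in 1 library and 0.283 CPM over both IgG libraries together. Values below the floor of their library, such as 0.21 CPM for Lsm1 in IgG replicate B, cannot be read as levels.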

Other observations

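Set across the separately normalized tables, as a description with no test, the mean CPM in His divided by the mean CPM in control embryos had a median of 0.468 over the 46 splicing genes with at least 10 CPM in controls, against 0.633 over 7263 genes at that level. Prpf39 was lowest of the 46, at 176.7 CPM in controls and 3.94 CPM in His, followed by Prpf38a at 606.4 and 37.8 CPM. Snrpd3 was highest of the 46, at 47.8 and 284.2 CPM.

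Below 10 CPM in controls, Prpf19 was at 2.17 CPM in controls and 152.7 CPM in His, and Sf3a2, a subunit of SF3a, at 0.90 and 19.1 CPM. In the IgG libraries Prpf19 was at 653.5 and 23.1 CPM and Sf3a2 at 43.4 and 0 CPM, so reads of both genes were present on IgG beads too. The tables came from separate experiments, and differences in embryos, handling and scaling cannot be told apart here.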
